A study of Homo sapiens with 15 samples.

Results

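FOXA1 binding in parental 22Rv1 cells was compared after exposure to the stereoprobe WX-02-23 and after the vehicle DMSO. 22Rv1 is a widely used cell line that grew out of a human prostate carcinoma xenograft. The comparison rests on 2 of the 12 peak lists of the series. The DMSO list holds 30557 peaks and the WX-02-23 list 17217, so 47774 of the 249079 listed peaks belong to it. Both groups were parental cells without an engineered allele, exposed for 3 h to 0.1% DMSO or to 20 µM WX-02-23, and chromatin was immunoprecipitated with an antibody against FOXA1. Other parental lists are set beside this pair: WX-02-43, also a stereoprobe at 20 µM for 3 h, PladB (pladienolide B, which binds the splicing factor complex that contains PHF5A) for 3 h, and a control small interfering RNA (siControl) whose time and dose the labels do not give. The parental PladB sample carries 100 nM in its own label and 10 nM in the shared protocol. A list from cells with a small interfering RNA against FOXA1 (siFOXA1) is also used. Each group is 1 library, so no difference below has a replicate check and no test between conditions was made.

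FOXA1 is a forkhead transcription factor that can bind DNA wrapped in nucleosomes and open the chromatin around it, which is why it is called a pioneer factor. In prostate cells it prepares enhancers for the androgen receptor and other lineage factors. Its sites are mostly distal enhancers, often several around one gene, and their occupancy varies widely from site to site. The study's title speaks of redirecting this function with covalent small molecules, and the comparison asks at which sites FOXA1 was still called, no longer called or newly called with WX-02-23. Peak sequences and neighbouring genes were not analysed here, since no genome of the peaks' build was used, and sites are given by position.

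A DMSO peak was kept when it overlapped a WX-02-23 peak by at least 1 bp and was lost otherwise. A WX-02-23 peak that overlapped no DMSO peak was gained. With WX-02-23, 16135 DMSO peaks were lost, which is 52.8% of those compared, and 2667 WX-02-23 peaks were gained, which is 15.5% of that list. Depth in reads was not analysed here, and fewer peaks can come from a shallower or less enriched library as well as from less binding. The peaks of both lists lay on 24 chromosomes, and the DMSO peaks covered 23.1 Mb against 12.2 Mb with WX-02-23. Of the kept peaks, 15 were overlapped over less than 10% of their width and 93.0% over at least 50%, and 262 lost peaks had a WX-02-23 peak within 500 bp. When the overlap had to cover at least 50% of both peaks, 17238 were lost and 3898 gained, and a narrower partner inside a wide peak then counts as a loss.

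Loss reached into strongly enriched sites. Peaks were ordered by the deposited score, a value per peak whose definition the sources used here do not give and which was used only for order within a list. Of the 3056 DMSO peaks in the highest-scoring decile, 75 were lost, of the next decile 346 and of the third 781. WX-02-43, PladB and siControl lost 0 of the top decile. Under the overlap of 50% of both peaks the top decile lost 317 peaks with WX-02-23 and 102 with WX-02-43, against 13 under siControl and 12 under PladB, so the count of 75 depends on the overlap asked for. The kept share fell from 97.5% (95% Wilson interval 96.9 to 98.0%) in the first decile to 58.1% (56.3 to 59.8%) in the fourth, 34.7% (33.0 to 36.4%) in the sixth and 11.8% (10.8 to 13.0%) in the last. Such intervals reflect the number of peaks counted and nothing of the variation between cultures, and they take each peak as separate from its neighbours.

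The other parental lists kept strong sites more completely. PladB lost 3610 DMSO peaks (11.8%) and siControl 3627 (11.9%), and in the fourth decile they still kept 99.9% each. WX-02-43 lost 13602 (44.5%), and in the fourth decile it kept 80.8% (79.3 to 82.1%). The WX-02-23 share lay below the WX-02-43 share, with separate intervals, in each of the 7 highest-scoring deciles. In the 3 lowest deciles the intervals of both stereoprobes overlapped, at 20.0% (18.6 to 21.4%) and 20.2% (18.8 to 21.6%) in the eighth. In the ninth and the last, WX-02-23 kept the larger share, 16.4% against 14.3% and 11.8% against 10.0%. All these comparisons share the DMSO library, and the difference between the stereoprobes could not be tested with 1 library each.

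**Figure D1:**
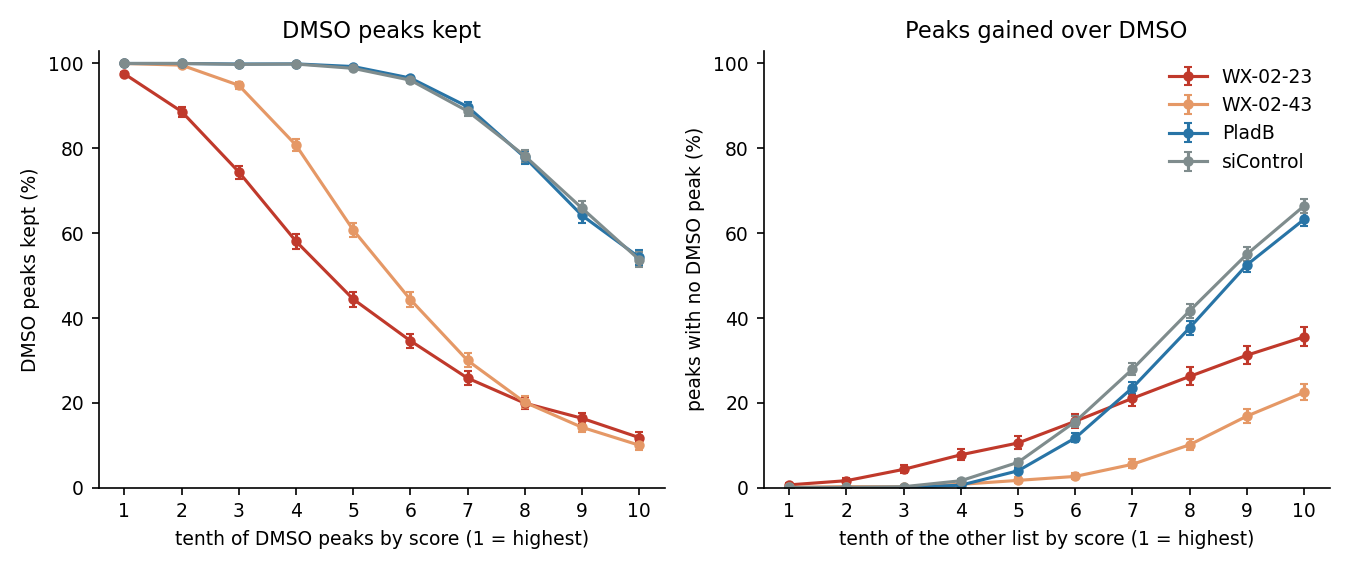
Left, share of DMSO peaks kept in each other parental list (y, %) by decile of the DMSO score (x, 1 = highest); right, share of each list's peaks with no DMSO peak (y, %) by decile of that list's own score. Bars are 95% Wilson intervals. The WX-02-23 curve falls from 97.5% to 11.8% and leaves the others in the first deciles. In the upper deciles a larger share of peaks is gained with WX-02-23 than in the other lists. In the lowest deciles the share is smaller than under PladB and siControl.

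Weak DMSO peaks are also missed in the PladB and siControl lists, so the lost peaks were looked up there. Of the 16135 lost peaks, 72.2% (71.5 to 72.9%) were called with both PladB and siControl, and 12.0% (11.5 to 12.5%) with neither. Of all DMSO peaks, 83.2% were called with both, so lost peaks were found there less often than the list as a whole. PladB called 80.0% of lost and 97.4% of kept peaks, and siControl 80.2% and 97.0%. Among the 25438 DMSO peaks called in both of these lists, WX-02-23 kept 54.2% (53.6 to 54.8%) and WX-02-43 kept 65.0% (64.5 to 65.6%). Of this set, which was chosen after seeing the data, 1219 peaks lay in the last decile of the whole DMSO list. Among them these shares were 16.0% (14.0 to 18.2%) and 17.6% (15.5 to 19.8%).

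Cutting both lists to the same number of top-scoring peaks removed the difference in length. At 17217 peaks per list 5406 DMSO peaks were lost (31.4%) and 5247 WX-02-23 peaks gained (30.5%). Lists of equal length have close lost and gained counts by construction. Of the 5247, 2580 overlapped a DMSO peak below the cut and 2667 overlapped none in the whole DMSO list. At that length the WX-02-43 list gained 18.3% of its peaks. The kept share was 69.0% (68.2 to 69.8%) at 12500 peaks, 64.5% (63.1 to 65.8%) at 5000, 54.0% (51.9 to 56.2%) at 2000 and 43.4% (39.1 to 47.8%) at 500. It thus fell as the lists were narrowed to their strongest peaks. At 500 peaks WX-02-43 kept 74.0% (70.0 to 77.7%), PladB 87.8% (84.6 to 90.4%) and siControl 82.0% (78.4 to 85.1%).

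What left the top of the list differed with list length. All 283 DMSO peaks lost from the top 500 were still called with WX-02-23 at a lower rank, so among the very strongest sites the order changed and not the call. Of the 1777 lost from the top 5000, 1538 were called lower down and 239, or 4.78% of the 5000, were absent from the whole WX-02-23 list. WX-02-43 lacked 7 of these 5000, and PladB and siControl lacked 0, which allows a share of up to 0.06% by a limit of 3 counts. Of the top 10000 DMSO peaks, 1511 were absent under WX-02-23, 285 under WX-02-43, 4 under PladB and 7 under siControl.

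**Figure D2:**
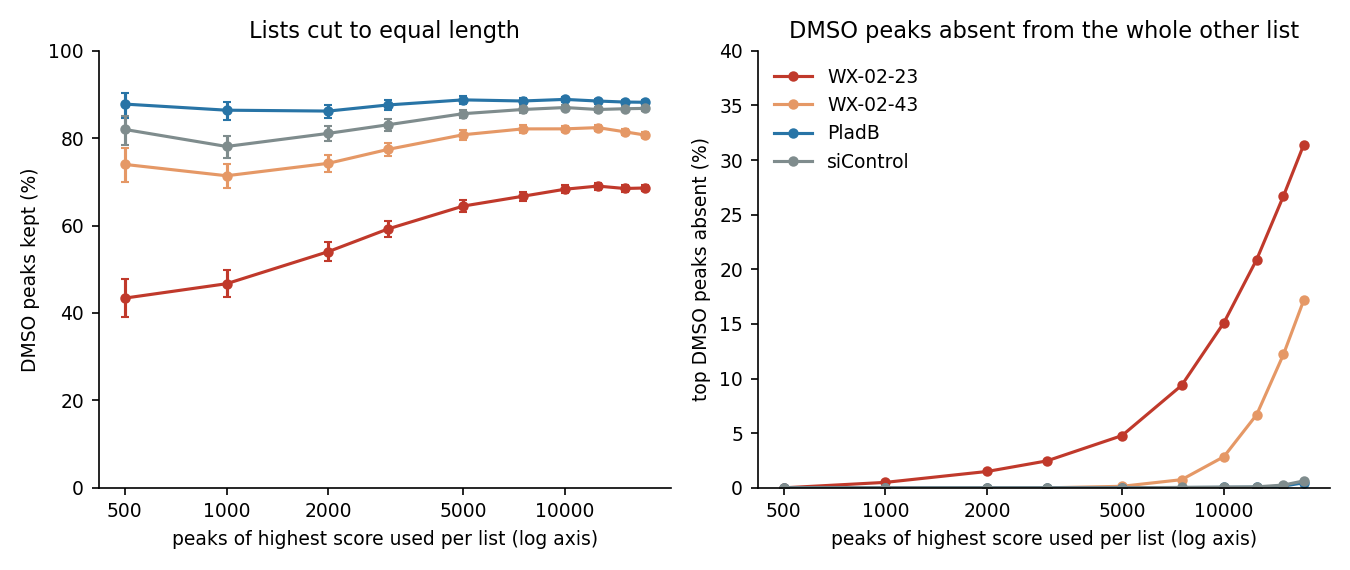
Left, DMSO peaks kept (y, %) when both lists are cut to the same number of top-scoring peaks (x, log axis), with 95% Wilson intervals; right, share of those DMSO peaks that are absent from the whole other list. With WX-02-23 the kept share is lowest for the shortest lists, 43.4% at 500 peaks, and 31.4% of the top 17217 DMSO peaks are absent at the right end.

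The 5 strongest lost sites all ranked in the top 2.89% of the DMSO list. They are given by hg19 position, counted from 1. The site at chr3:30559389-30560785 ranked 530 of 30557 with DMSO, 281 with PladB, 415 with siControl and 1099 of 18228 with WX-02-43. The nearest WX-02-23 peak lay 76877 bp away, and the nearest other DMSO peak, 4840 bp away, was lost too. The site at chr16:65030159-65031288 ranked 618 with DMSO, 591 with PladB, 758 with siControl and 957 with WX-02-43. It stood alone, 359710 bp from the next DMSO peak, which was kept. These 2 sites were thus strong in these 4 parental lists and without a call in the WX-02-23 list. An engineered line that expresses Y36C-PHF5A and inducible wild-type FOXA1, given doxycycline and DMSO, listed them lower, at 44.4% and 15.6% of the way down its list.

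The others had the same form. The site at chr11:111205092-111206195 ranked 688 with DMSO and 1039 with siControl, and 2052 with WX-02-43, 11.3% of the way down that list. The site at chr2:101726482-101727680 ranked 864 with DMSO and 937 with siControl, and 3392 with WX-02-43, 18.6% of the way down. The site at chr1:191907510-191908552 ranked 882 with DMSO and 857 with siControl, and a weaker DMSO peak only 31 bp away was lost with it. This site was called with WX-02-23 in the engineered wild-type FOXA1 line given doxycycline, 26.7% of the way down that list. None of the 5 was called with siFOXA1, where only 3.92% of all DMSO peaks were called, so little can be read from 5 sites.

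Of all 75 lost peaks in the top decile, 75 were called with PladB, with siControl and with WX-02-43, and 0 with siFOXA1. Over the top 2 deciles 421 peaks were lost, of which 421 were called with PladB and with siControl, 416 with WX-02-43 and 2 with siFOXA1 (0.475%, 0.130 to 1.72%). Of the 5691 kept peaks in these deciles, 5691 were called with PladB and with siControl and 5684 with WX-02-43. These 3 lists thus held nearly every DMSO peak of these deciles, lost or kept. With siFOXA1, 851 of the kept peaks were called (14.95%, 14.0 to 15.9%). Within the top decile the counts were 506 of 2981 kept peaks (17.0%, 15.7 to 18.4%) and 0 of 75 lost peaks, which allows a share of up to 4%. In the next decile they were 345 of 2710 (12.7%, 11.5 to 14.0%) and 2 of 346 (0.578%, 0.159 to 2.08%). Strong sites kept with WX-02-23 were thus listed after knockdown more often than strong sites lost with it, by more than counting error. Kept sites also scored higher within each of these deciles, with medians of 1456 and 1186 in the first and 747 and 686 in the second.

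Gained peaks were mostly weak, and none scored above 1414 in a list that reached 3222. Some lay in every decile. Their median score was 123, against 224 for WX-02-23 peaks shared with DMSO. The gained share rose from 0.697% (0.399 to 1.21%) in the top decile of the WX-02-23 list to 10.6% (9.20 to 12.1%) in the fifth and 35.6% (33.3 to 37.9%) in the last. In the third decile it was 4.36% (3.49 to 5.43%), against 0.219% (0.0854 to 0.563%) in the WX-02-43 list, 0.0302% (0.00533 to 0.171%) under PladB and 0.264% (0.139 to 0.501%) under siControl. In the last decile the order differed, with 22.5% in the WX-02-43 list, 63.3% under PladB and 66.4% under siControl. Over whole lists the gained shares were 6.1% in the WX-02-43 list (1111 peaks), 19.4% under PladB (6411) and 21.5% under siControl (7331). Of these 4 lists, WX-02-23 thus had the highest gained share in each of its 5 strongest deciles and not over the whole list. Deciles refer to each list's own length.

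Part of the gained peaks was listed in other parental lists. Of the 2667, 1059 (39.7%, 37.9 to 41.6%) were called with PladB or siControl, and 308 (11.5%, 10.4 to 12.8%) with WX-02-43. Taken singly, PladB called 27.1% of gained peaks and siControl 30.4%, against 97.4% and 97.0% of kept DMSO peaks. WX-02-43 called 82.5% of those kept peaks. With siFOXA1 158 gained peaks were called (5.92%, 5.09 to 6.89%), against 8.14% of the WX-02-23 peaks shared with DMSO and 7.80% of the whole WX-02-23 list. Among DMSO peaks 8.18% of kept (7.74 to 8.63%) and 0.124% of lost ones (0.0803 to 0.191%) were called there. Gained peaks of siControl were called with siFOXA1 in 1.71% of cases and those of WX-02-43 in 10.9%. Peaks wider than 2 kb numbered 113 with WX-02-23, of which 41 were gained and 54 were siFOXA1 peaks. The part of such peaks in the gained class was not tested beyond their number. Without wide and siFOXA1 peaks, a choice made after seeing the data, 2500 gained peaks remained.

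The 5 strongest gained sites were of different kinds by their calls elsewhere. The site at chr5:79646842-79647939 ranked 448 of 17217 with WX-02-23, but also 85 of 33121 with PladB, 818 with WX-02-43 and 5 of 3018 with siFOXA1. It is a gain only against the DMSO library. The site at chr12:80622948-80623899 ranked 1171 with WX-02-23 and was called in none of the other 5 parental lists. The nearest DMSO peak lay 11694 bp away. The site at chr8:93370652-93371515 ranked 1396 and was called in parental cells otherwise only with WX-02-43, at rank 16841. The site at chr1:121483003-121485491, 2489 bp wide, ranked 1479 and was called in no other list of the series. Whether this or any other site lies in repeated sequence or in a region of high background was not checked here. The site at chr1:120634680-120635908 ranked 1495 and was weak with PladB (rank 28999) and siControl (28814).

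Gained peaks were spread thinly, with a few dense places. They fell into 1598 windows of 1 Mb, of which 931 held 1 gained peak and 28 held 5 or more. The densest window, chr1:148000001-149000000, held 20 gained peaks beside 19 DMSO peaks, and 17 of the 20 were called with siFOXA1 and 16 with siControl. The next, chr1:144000001-145000000, held 15, of which 10 were called with siFOXA1 and 9 with siControl. The third, chr8:86000001-87000000, held 14 within a stretch from 86574036 to 86840801, and all 14 were called with siFOXA1. The 3 densest windows were thus places where peaks were listed after FOXA1 knockdown as well, and their repeat content was not checked. The median distance of a gained peak to the nearest DMSO peak was 24251 bp, against a median of 23531 bp from one DMSO peak to the next.

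Sites called in both lists differed in order and width. Of the overlaps, 14134 joined 1 DMSO peak with 1 WX-02-23 peak. A further 185 DMSO peaks met more than 1 WX-02-23 peak and 61 WX-02-23 peaks met more than 1 DMSO peak. To set lists side by side on the same sites, 11174 DMSO peaks with such a partner in all 4 other lists were used. Across these sites, Spearman's rank correlation of score with DMSO was 0.59 in the WX-02-23 list, 0.84 in that of WX-02-43, 0.94 under PladB and 0.91 under siControl. The median shift in rank was 16.2% of the sites under WX-02-23 and 9.40%, 5.40% and 6.99% in the other 3 lists. These are descriptions over sites of single libraries that share the DMSO list, and sites are not replicates.

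Width moved in the same way with both stereoprobes. At these 11174 sites the median width was 874 bp with DMSO, 702 and 708 bp in the WX-02-23 and WX-02-43 lists, 985 bp under PladB and 931 bp under siControl. The WX-02-23 peak was narrower than its DMSO partner at 78.0% of sites and the WX-02-43 peak at 84.1%. Called width depends on depth and enrichment, and its relation to binding was not tested. The median distance between centres was 55 and 51 bp for the stereoprobes WX-02-23 and WX-02-43, 45 bp for PladB and 43 bp under siControl. Pairs were formed by overlap, which bounds this distance, and a site that moved farther counts as lost and gained.

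Single sites crossed most of the order in both directions. The 3 that fell farthest among strong peaks were chr3:149118731-149120212, chr13:89066470-89067672 and chr9:128103271-128104604. The first went from rank 782 of 30557 with DMSO to 17091 of 17217 with WX-02-23, while it ranked 870 with WX-02-43 and 1020 with siControl, and its width went from 1482 to 667 bp. The second went from 734 to 16799, and the third from 407 to 16189, with widths of 1203 and 1334 bp against 400 and 416 bp. These sites count as kept and lie next to loss by rank.

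The 3 that rose farthest were chr2:78461039-78461423, chr3:55795118-55795524 and chr8:105174713-105175326 by their DMSO bounds. The first went from rank 27023 to 477 and from 385 to 1084 bp in width, and ranked 24489 with siControl and 10245 with WX-02-43. The second went from 26601 to 1579 and the third from 24465 to 834, and neither was called with WX-02-43. None of the 6 was called with siFOXA1, as were only 3.92% of all DMSO and 7.80% of all WX-02-23 peaks, so little can be read from 6 sites. To count such moves free of list length, deciles were formed among the 11174 common sites. Of the 1117 sites in the top decile with DMSO, 537 were also in the top decile in the WX-02-23 list, against 797 in that of WX-02-43, 967 under PladB and 879 under siControl. In the lower 5 deciles 86 were found under WX-02-23 and 0 in each of the other 3 lists. In the opposite direction, 74 sites of the top decile in the WX-02-23 list lay in the lower 5 deciles with DMSO, against 1 in the siControl list and 0 for both PladB and WX-02-43.

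**Figure D3:**
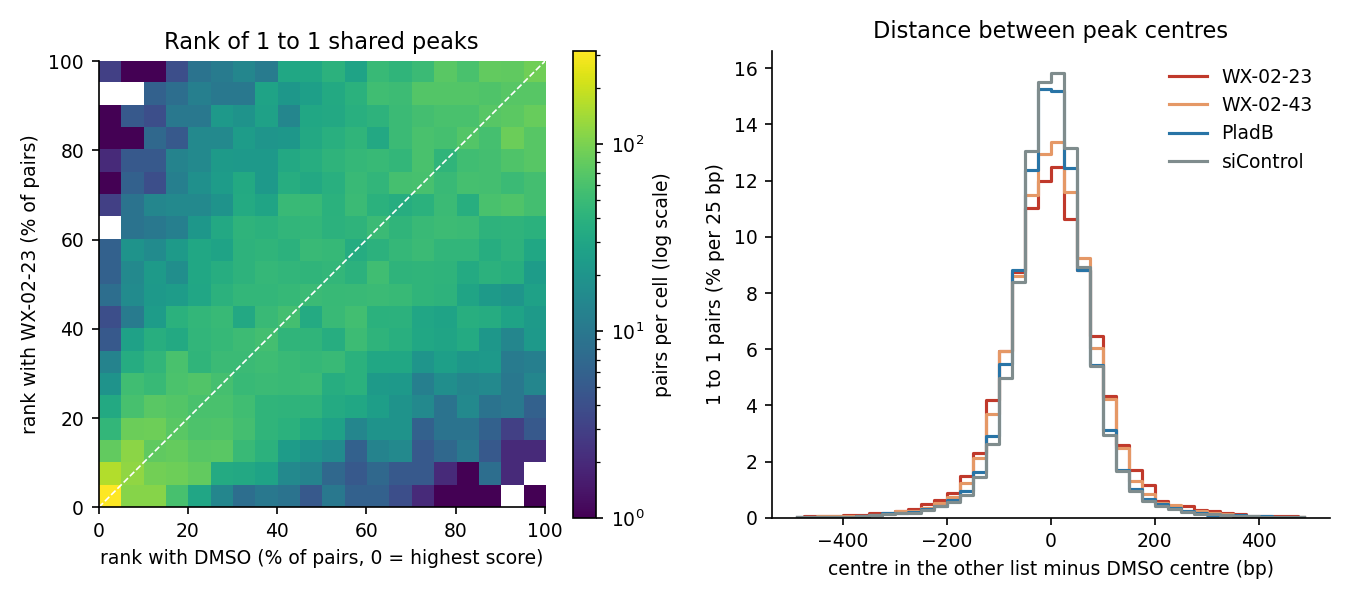
Left, rank of the 14134 one-to-one pairs with DMSO (x) and with WX-02-23 (y), as percent of pairs with 0 for the highest score, coloured by pairs per cell on a log scale; the dashed line marks equal rank. Right, distance between peak centres in bp (x) and percent of pairs per 25 bp bin (y) for 4 lists. Ranks scatter widely about the line, and the centres of WX-02-23 peaks lie within 100 bp of the DMSO centres in 76.3% of pairs.

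Lost peaks were narrower than kept ones, and the difference followed their scores. The median width was 600 bp (quartiles 495 and 712) for lost and 825 bp (660 and 1056) for kept DMSO peaks, and 486 bp (408 and 608) for gained peaks. By quintile of width, the kept share rose from 20.2% (19.2 to 21.3%) among the narrowest to 83.6% (82.7 to 84.5%) among the widest peaks. When the quintiles were formed within each score decile, the shares lay between 46.5% and 47.9%. Within single deciles the widest minus the narrowest quintile ranged from -6.32 to 3.44 percentage points and was above 0 in 5 of 10. Score kept its relation inside one width class: among peaks of 630 to 743 bp, 73.3% (70.7 to 75.7%) of the highest-scoring quintile were kept and 20.1% (18.0 to 22.5%) of the lowest.

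Spacing had little relation to loss over the whole list, and within score deciles small differences of either sign had overlapping intervals. The median distance to the nearest other DMSO peak was 23769 bp for lost and 23292 bp for kept peaks. By quintile of spacing the kept share lay between 46.9% and 47.4% over the whole list, and between 46.4% and 47.8% within score deciles. Crowded peaks, with a median of 1634 bp to the next peak, were kept at 47.4% (46.1 to 48.6%), and isolated ones, with a median of 104758 bp, at 46.9% (45.6 to 48.1%). Within single deciles the share of isolated minus that of crowded peaks was above 0 in each of the 7 highest-scoring deciles, up to 4.70 percentage points in the third, and below 0 in the other 3, down to -4.55 in the ninth. In the third decile the shares were 78.2% (74.8 to 81.3%) and 73.5% (69.9 to 76.9%). The intervals of isolated and crowded peaks overlapped in this and every other decile. Median spacing in the top decile was 13585 bp for lost and 20142 bp for kept peaks.

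**Figure D4:**
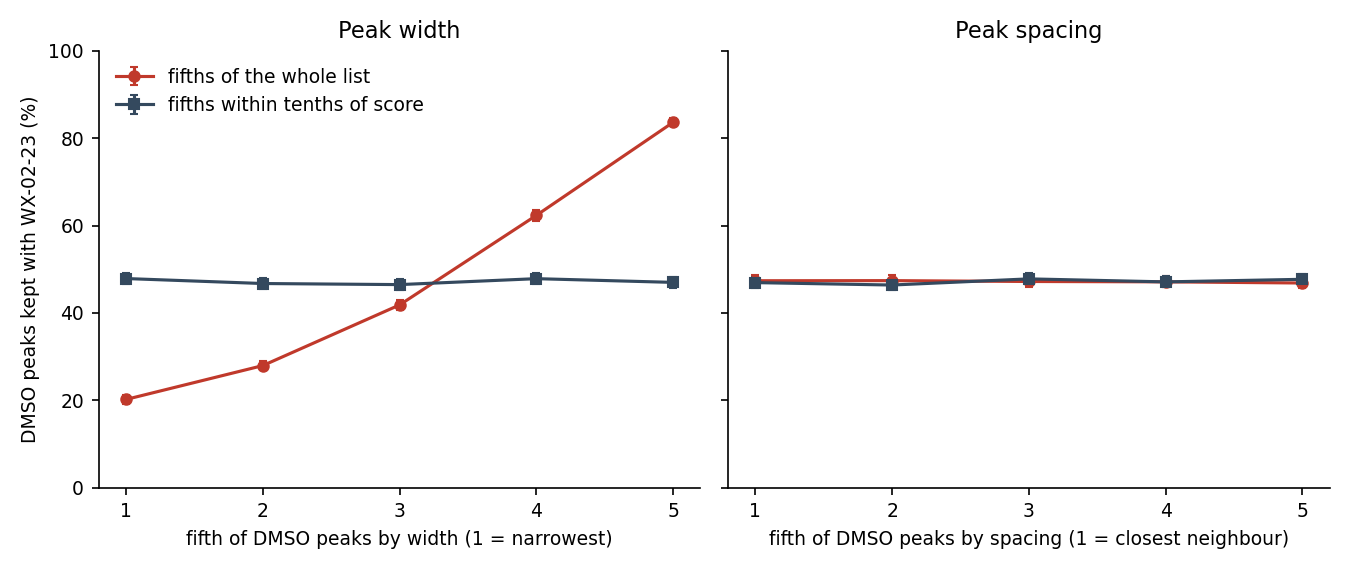
Share of DMSO peaks kept with WX-02-23 (y, %) by quintile of peak width (left) and of distance to the nearest other DMSO peak (right), over the whole list (circles) and within score deciles (squares), with 95% Wilson intervals. Width separates kept from lost over the whole list, from 20.2% to 83.6%, and not when score deciles are pooled, and the pooled shares by spacing are flat.

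Neighbouring sites shared their fate more often at short range. A DMSO peak whose nearest neighbour was kept was itself kept at 48.5% (47.7 to 49.3%), and one whose neighbour was lost at 46.0% (45.2 to 46.8%). Within 1 kb these shares were 54.5% (51.5 to 57.5%) and 42.3% (39.4 to 45.2%), where the scores of these peaks alone would give 47.1% and 46.5%. One WX-02-23 peak can overlap both of such neighbours, and its part was not tested. At 1 to 5 kb the shares were 49.4% (47.2 to 51.7%) and 44.7% (42.5 to 46.8%), and at 20 to 100 kb 47.6% and 46.4%.

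Clusters of sites were mixed slightly less often than the scores of their peaks would give. DMSO peaks at most 10 kb apart were joined into clusters. Of the 3185 clusters of 2 peaks, 1524 were mixed, 946 lost both and 715 kept both. Of the 663 clusters of 3 peaks, 468 were mixed, 102 lost every peak and 93 kept every peak. Of the 225 clusters of 4 or more, 194 were mixed, 19 were lost whole and 12 kept whole. The mixed shares were 47.8%, 70.6% and 86.2% in order of size. Calls made separately for each peak at the kept share of its score decile would give 49.1%, 74.3% and 89.9%, and the differences were not tested. Peaks in these larger clusters were kept at 51.3% (48.2 to 54.3%), where their scores would give 48.6%, and lone peaks at 47.0% (46.4 to 47.7%).

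By chromosome, the kept share was lowest on chromosomes 19, 17 and 21 and highest on chromosomes 8, Y and 11. It was 38.8% (35.1 to 42.6%, 645 peaks) on chromosome 19, 38.8% (35.6 to 42.1%, 864 peaks) on chromosome 17 and 40.4% (34.9 to 46.2%, 282 peaks) on chromosome 21. It was 51.0% (48.5 to 53.6%, 1505 peaks) on chromosome 8, 50.6% (43.0 to 58.2%, 164 peaks) on chromosome Y and 49.2% (46.5 to 51.9%, 1352 peaks) on chromosome 11. Chromosomes 19 and 17 are known for their high density of genes, and a relation of the kept share to gene density was not tested.

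Chromosomes also differ in the scores of their peaks. With the kept share of each score decile applied to its peaks, chromosome 19 would have kept 43.8%, chromosome 17 43.3% and chromosome 21 48.0%. On these 3 of the 24 chromosomes the whole interval lay below the level from scores. On chromosome X it lay above, with 46.8% (43.5 to 50.1%) against 43.0%. In the same count 3 chromosomes lay outside under siControl and 2 each under PladB and WX-02-43, and among 24 intervals of 95% some fall outside by counting error alone. WX-02-43 kept 47.9% (44.1 to 51.8%) on chromosome 19, 49.3% (46.0 to 52.6%) on chromosome 17 and 52.8% (47.0 to 58.6%) on chromosome 21, where its own score deciles gave 52.1%, 51.2% and 56.7%. On chromosome X it kept 55.9% (52.6 to 59.2%) against 51.3%. PladB kept 84.4% (81.9 to 86.7%) on chromosome X against 86.8% from scores. With both lists at 17217 peaks, chromosomes 17, 19 and 21 kept 58.2%, 59.8% and 59.9% and chromosome X 72.1%.

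**Figure D5:**
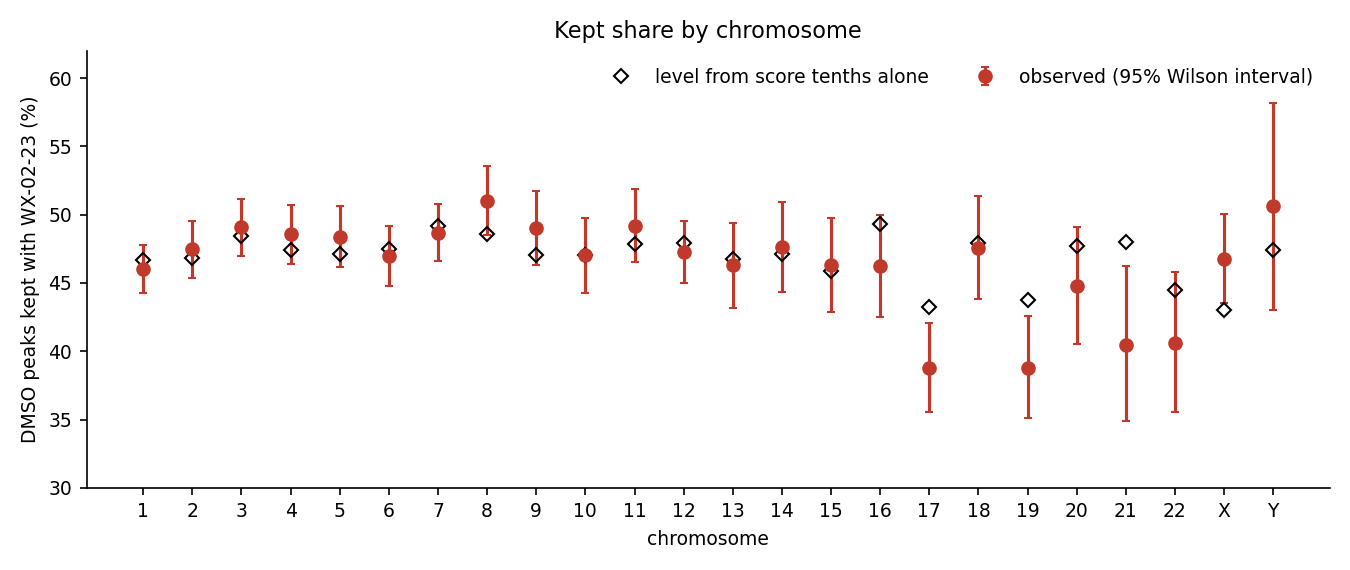
Share of DMSO peaks kept with WX-02-23 on each chromosome (circles, y in %, axis from 30 to 62%) with 95% Wilson intervals, and the share that the score deciles of its peaks alone would give (diamonds). Chromosomes 17, 19 and 21 lie below their diamonds by more than their interval and chromosome X above.

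Gained peaks made up 12.1% (10.3 to 14.0%) of WX-02-23 peaks on chromosome 7 and 26.3% (19.1 to 35.1%) on chromosome Y. On chromosome 19 the gained share was 19.9% (15.9 to 24.6%) and on chromosome 17 13.6% (10.5 to 17.3%). A low kept share therefore came with a gained share above that of the whole list on chromosome 19 and below it on chromosome 17, within counting error in the second case.

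At the scale of 1 Mb, 628 windows held at least 15 DMSO peaks. Their kept shares had a median of 46.7% with quartiles of 38.6% and 56.2%. The lowest were chr2:20000001-21000000 with 2 of 19 peaks kept (10.5%, 2.94 to 31.4%), chr6:53000001-54000000 with 2 of 15 and chr15:41000001-42000000 with 3 of 19. In these windows WX-02-43 kept 5, 5 and 6 peaks and siControl 16, 13 and 12. The highest was chrX:114000001-115000000, where 20 of 21 were kept (95.2%, 77.3 to 99.2%), while scores alone would give 57.8%, and WX-02-43 and siControl kept all 21. The others were chr1:224000001-225000000 with 13 of 15 and chr5:17000001-18000000 with 14 of 17, where scores alone would give 53.9% and 55.8%. In these windows WX-02-43 kept fewer, 10 and 12 peaks. Windows picked as the extremes of 628 are a description of where loss was densest.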

How the data were processed

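Each FOXA1 ChIP library has 1 deposited BED list of peaks, called by the authors per library and not on pooled samples. Per the labels' protocols, chromatin was fixed in 1.1% formaldehyde and broken by sonication. The submitters' processing notes name bcl2fastq, Bowtie2 and hg19. The peak names start with MACS, and caller version, thresholds and control library are not given in the sources used here. The score in each list is the authors' own deposited value per peak, used only to rank or filter peaks within a list. Ties were broken by chromosome and start. Of the DMSO peaks, 248 share a score of 3100 and 19 share the score of 197 at rank 17217. Overlaps were computed with numpy 2.4.6, checked against bedtools 2.31.1 and tested on simulated lists, and 95% Wilson intervals with scipy 1.17.1. Distances run from edge to edge. The 3 input libraries were not analysed here.

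Named are the 5 strongest lost and gained peaks, the 3 one-to-one pairs in the top decile of either list that fell and rose most in percent rank, the 3 windows of 1 Mb with the lowest and highest kept share (at least 15 DMSO peaks), the 3 with most gained peaks, and the 3 chromosomes at each end (at least 100 DMSO peaks). The comparison and these rules were chosen with earlier results of these data known. Forkhead motifs and gene annotation were not analysed here.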

Additional observations from a re-analysis of the deposited data

How the results depend on the processing

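The limits are 1 library per condition, an unknown read depth and a score of unknown definition. For 18 results, 80 alternative values were computed. Of these, 34 stayed within the counting interval or within 1.5 times the count, among them all from autosomes alone, and 46 moved. No paired analysis was possible because no label carries a replicate number.

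A reciprocal overlap of 50% changed kept shares to 43.6% (WX-02-23), 52.9% (WX-02-43), 85.3% (PladB) and 85.8% (siControl), the top decile to 89.6%, the chromosome range to 34.7 and 47.6%, and the shares with a kept or lost neighbour to 44.9 and 42.6%. Median widths became 810 bp (kept) and 610 bp (lost), and the distance of gained peaks to DMSO peaks 8140 bp. Peaks up to 500 bp apart gave kept shares of 48.1%, 56.4%, 88.6% and 88.6% in the same order, 13.4% in the lowest decile and a gained distance of 26312 bp. The DMSO centre within a WX-02-23 peak gave 46.2% kept and 95.5% in the top decile, and peaks joined within 1 kb gave 48.0%.

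The top 50% of both lists gave 47.8% kept, 7974 lost and 1275 gained peaks, and a score of at least 200 gave 43.7%, 9582 and 1030. Each pair was also cut to the length of its shorter list, 17217 peaks for WX-02-23, 18228 for WX-02-43 and 30557 for PladB and siControl. The kept shares were 68.6% (WX-02-23), 80.4% (WX-02-43), 85.2% (PladB) and 84.2% (siControl). At 17217 peaks for every list, they were 80.7% (WX-02-43), 88.2% (PladB) and 86.8% (siControl). For WX-02-23 this cut gave 5406 lost and 5247 gained peaks, with widths of 892 bp (kept), 736 bp (lost) and 509 bp (gained). Its spacings were 42119 bp (kept), 42910 bp (lost) and 45797 bp (gained). The chromosome range was then 58.2 to 72.1%, and the neighbour shares were 69.0 and 67.7%. Fewer peaks in a list widen its spacing by construction.

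Chosen after seeing the data, DMSO peaks called with PladB and siControl gave 54.2% kept with WX-02-23 and 65.0% with WX-02-43, and gained peaks in neither of these lists numbered 1608. Under every alternative run on both stereoprobes the WX-02-23 share was the lower one.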

Other observations

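The classes of the parental comparison were looked up in the engineered lines, which stably express Y36C-PHF5A and carry doxycycline-inducible FOXA1, wild type (WT) or C258A, with 1 library per condition. No label describes a way to tell the endogenous protein from the induced one. Without doxycycline, lost DMSO peaks were called in 12.0% (11.5 to 12.5%) of cases in the WT line and 22.5% (21.9 to 23.2%) in the C258A line, and kept ones in 42.4% (41.6 to 43.2%) and 55.5% (54.7 to 56.3%). Gained peaks were called in 1.05% (0.727 to 1.51%) and 2.44% (1.92 to 3.09%). These 2 lists without doxycycline hold 8575 and 12752 peaks. With doxycycline and DMSO, gained peaks were called in 22.8% (21.2 to 24.4%) in the WT line and 7.76% (6.81 to 8.84%) in the C258A line. With doxycycline and WX-02-23 the shares were 30.2% (28.5 to 32.0%) and 17.7% (16.3 to 19.2%). The other classes also changed between these lists. In the C258A line, kept peaks went from 27.3% with DMSO to 41.2% with WX-02-23, and lost peaks from 8.29% to 11.8%. Its lists held 13299 and 20609 peaks. In the WT line, kept peaks went from 50.9% to 46.1% and lost peaks from 23.8% to 13.3%.

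Among strong sites (the top 2 score deciles), the differences between lost and kept peaks without doxycycline were smaller. In the WT line 63.2% (58.5 to 67.7%) of the 421 lost and 73.6% (72.5 to 74.8%) of the 5691 kept sites were called, and in the C258A line 85.3% (81.6 to 88.3%) and 87.1% (86.2 to 87.9%). With doxycycline and DMSO, WT cells called 305 of the 421 lost sites, and with doxycycline and WX-02-23 they called 132. Their counts for the kept sites were 4139 and 3563. C258A cells called 165 and 195 of the lost sites, and 2739 and 3537 of the kept ones. The lists differ in length (31735 and 25849 peaks in WT cells, 13299 and 20609 in C258A cells), and the differences were not tested.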
